A study of Homo sapiens with 6 samples.

Results

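Caveolae are flask-shaped pits of the plasma membrane that are abundant in endothelium. Diaphragms are thin protein sheets that span caveolar necks and endothelial fenestrae, and those of fenestrae are the fenestral diaphragms. The genes described here were 8 that were chosen by name for these structures: the caveolins CAV1 and CAV2, the cavins PTRF, SDPR and PRKCDBP, the neck and membrane-bending proteins EHD2 and PACSIN2, and the diaphragm protein PLVAP. All 8 were found among the 28514 rows of the count table, and all 8 passed the filter on low counts. PTRF, SDPR and PRKCDBP are the older symbols of CAVIN1, CAVIN2 and CAVIN3.

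The libraries were mRNA sequencing of CI-huVEC, an immortalised cell line from the endothelium of the human umbilical vein. The knockouts were 3 clonal CCM3 -/- lines (K17, K18 and K19), made by CRISPR/Cas9 editing at exon 3 of CCM3, and they were set against 3 wild-type lines (WT 1, WT 2 and WT 4). CCM3, now named PDCD10, is a gene mutated in familial cerebral cavernous malformations. All 6 lines were at passage 31 and shared HKO as their clone label, with no word on what it stands for. Each knockout library is 1 clone, so for every gene below the loss of CCM3 and a difference between clones cannot be told apart. Nothing in the labels marks the wild-type lines as separate clones or cultures, so a p-value here measures spread among samples that may be technical in part.

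Total counts ranged from 28280417 to 29834621 in the knockout libraries and from 28392460 to 32919491 in the wild-type libraries, where CPM is counts scaled to a fixed library total with TMM factors. On that scale 3 counts equal 0.102 to 0.108 CPM in the knockouts and 0.0903 to 0.104 CPM in the wild type. The edited gene PDCD10 was at 42.3 CPM in K17, 31.6 in K18 and 37.6 in K19, against 60.5 CPM in WT 1, 60.7 in WT 2 and 61.6 in WT 4. Gene counts do not show the edit itself. Endothelial markers were present in every library, with 11 markers summing to 4723 to 5364 CPM in the knockouts and 2865 to 3018 CPM in the wild type, and 9 of the 11 were called higher, beside 18% of all genes; their part in the results below was not tested. The knockout clones spread more than the wild-type lines, with a common biological coefficient of variation of 0.245 in the knockouts and 0.039 in the wild type. Genes rich in G and C read higher in 2 of the clones. Per 10 percentage points of transcript GC content, the log2 level relative to the wild-type mean rose by 0.45 in K18, 0.43 in K19 and 0.08 in K17, against slopes between -0.07 and 0.05 in the wild-type libraries.

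In a caveola, caveolin oligomers insert into the inner membrane leaflet and a coat of cavins assembles on them from the cytosol. CAV1 and PTRF are both needed to build caveolae, while the other cavins shape the coat and vary between tissues. EHD2 rings the neck and holds the caveola at the surface, PACSIN2 senses and bends the membrane through its F-BAR domain, and PLVAP forms the radial fibrils of the diaphragm. In endothelium caveolae take part in transcytosis, in buffering of membrane tension and in holding the endothelial nitric oxide synthase inactive.

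In the knockout clones 6 of the 8 genes were higher (CAV1, CAV2, PTRF, SDPR, PRKCDBP and EHD2), 1 was lower (PLVAP) and 1 was not called (PACSIN2). The test was edgeR's two-sided quasi-likelihood test over 14548 genes, and a gene was called at an adjusted p under 0.05. By the same test 38.7% of all genes were called, 18% higher and 20.8% lower. Leaving out 1 library moved the number of called genes, which was 5637 with all libraries, to 3081 without WT 1, 3360 without WT 2, 3020 without WT 4 and 9267 without K17. The median log2 fold change of the 8 genes, knockout over wild type, was 0.57, beside 0.002 over all genes tested. The knockout and wild-type libraries did not overlap in CPM for 7 of the 8 genes, beside 55.5% of all genes. After removal of each library's trend with GC content, 4 of the 8 were called higher and 1 lower, where 42.9% of 13270 genes were called in either direction. In these bulk libraries, fewer cells of a type and less RNA per cell cannot be told apart.

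**Figure D1:**
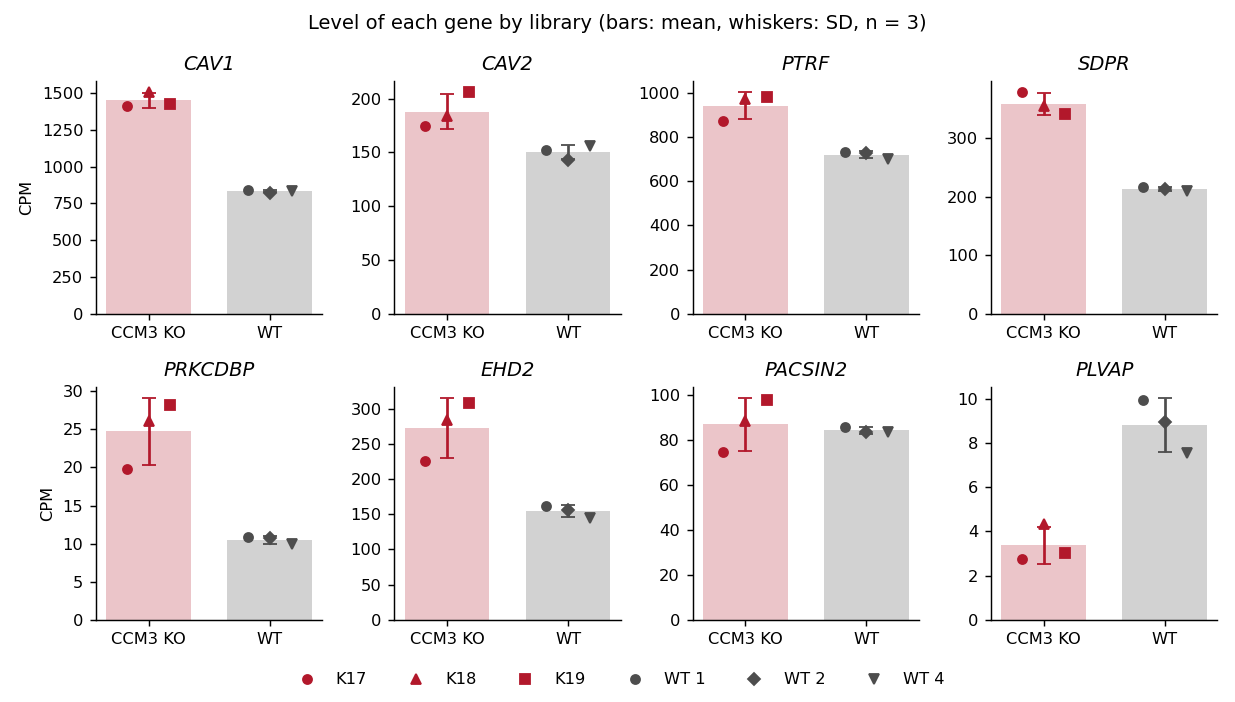
Level of each gene in CPM, with 1 panel a gene. Points are libraries, bars are means and whiskers are SD (n = 3 a group), with the CCM3 knockouts left of the wild type. The groups are apart for 7 genes, while the PACSIN2 knockout values of 74.6 to 97.8 CPM span the wild-type values.

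Among these genes PLVAP was lower and EHD2 was higher in the knockouts, and the stretches upstream of their starts are shown as the sequence context of a member in each direction, a choice made after their values were seen. Both are from RefSeq on GRCh38.p14, written 5′ to 3′ on the strand of the gene, and end before the first annotated transcript start. Capitals mark CACCC or CATTCC on either strand, the core letters of Krüppel-like factor and TEAD motifs.
PLVAP, chr19:17377351-17377592, minus strand: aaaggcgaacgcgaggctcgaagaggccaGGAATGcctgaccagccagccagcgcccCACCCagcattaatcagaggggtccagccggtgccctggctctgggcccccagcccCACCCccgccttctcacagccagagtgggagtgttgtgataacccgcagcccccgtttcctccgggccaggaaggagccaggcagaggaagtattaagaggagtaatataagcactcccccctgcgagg
EHD2, chr19:47713172-47713342, plus strand: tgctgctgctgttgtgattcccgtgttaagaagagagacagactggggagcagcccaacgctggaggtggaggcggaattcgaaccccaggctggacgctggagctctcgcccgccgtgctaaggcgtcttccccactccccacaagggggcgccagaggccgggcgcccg
The PLVAP stretch of 242 bases held 2 matches to CACCC and 1 to CATTCC (read as GGAATG), with no overlap between them. Of 35116 promoter windows of the same length and place, 53.7% held CACCC and 11.6% held CATTCC on either strand. The EHD2 stretch of 171 bases held neither, and 41.9% and 8.39% of windows of that length held CACCC and CATTCC. Neither stretch held the GC box GGGCGG or the TATA box letters TATAAA on either strand, which 41.7% and 10.6% of windows of the PLVAP length held. A stretch of 250 bases upstream of PACSIN2, the gene not called, also held 1 match to CATTCC and none to CACCC. These matches only describe letters in the windows.

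CAV1, the main structural protein of caveolae outside striated muscle, was at 1416 CPM in K17, 1508 in K18 and 1428 in K19. In WT 1, WT 2 and WT 4 it was at 842.2, 823.8 and 836.9 CPM. The 3 clones lay close to one another and all stood above the wild-type libraries. CAV1 rose 1.74-fold (95% interval 1.61 to 1.87), a log2 fold change of 0.80 (SE 0.04, adjusted p = 9.85e-05 by edgeR). It held rank 142 by p among the 14548 genes tested.

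CAV2, which forms mixed oligomers with CAV1 and depends on it to leave the Golgi, also rose. It was at 174.2 CPM in K17, 183.5 in K18 and 206.1 in K19, against 152.3 CPM in WT 1, 143.3 in WT 2 and 156.1 in WT 4. K17, the lowest clone, was still above WT 4, the highest wild-type library. The log2 fold change was 0.32 (SE 0.08, adjusted p = 0.0189 by edgeR). The CAV2 call ended when WT 1, WT 2 or WT 4 was left out, at edgeR adjusted p = 0.0726, 0.083 and 0.0592, and removing each library's trend with GC content gave a log2 value of 0.49.

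The ratio of CAV1 to CAV2 transcripts was higher in every clone than in any wild-type line. The ratio of CAV1 to CAV2 counts was 8.13, 8.22 and 6.93 in K17, K18 and K19, against 5.53, 5.75 and 5.36 in WT 1, WT 2 and WT 4. This ratio is taken within a library and does not depend on the scaling between libraries. The GC-content trend was not removed from it, with median transcript GC content of 46.2% for CAV1 and 42.8% for CAV2. The part of that trend in the ratio was not tested. Its log2 difference was 0.48, with an exact two-sided permutation p = 0.1, the smallest that 3 against 3 libraries can give. K19 was nearest to the wild type, having the highest CAV2 level.

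Among the cavins, PTRF is the one without which caveolae do not form. PTRF was at 872.6 CPM in K17, 972.6 in K18 and 984.5 in K19, against 733.7 CPM in WT 1, 728.0 in WT 2 and 702.3 in WT 4. Every clone was above every wild-type library. The log2 fold change was 0.39 (SE 0.06, adjusted p = 0.00387 by edgeR). PTRF transcripts have a median GC content of 59.9%, and with the GC-content trend removed the value was 0.05 and no longer called (adjusted p = 0.746 by edgeR). In K17, the clone with the smallest GC slope, PTRF stood 0.27 above the wild-type mean on the log2 scale. That is a single library, and the part of the GC-content trend in the PTRF difference was not tested.

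SDPR (cavin 2), which binds phosphatidylserine and promotes membrane curvature and is prominent in endothelium, was at 378.7 CPM in K17, 355.2 in K18 and 341.8 in K19. It was at 215.9 CPM in WT 1, 213.5 in WT 2 and 210.0 in WT 4. The groups were far apart and each was tight. SDPR rose 1.68-fold (95% interval 1.54 to 1.84), or 0.75 on the log2 scale (SE 0.05), with an edgeR adjusted p = 0.000249. Its GC content is 43.2%, and the value was 0.91 with the GC-content trend removed.

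PRKCDBP (cavin 3), known as a binding partner of protein kinase C delta, was the cavin of lowest level. It was at 19.8 CPM in K17, 26.2 in K18 and 28.2 in K19, against 10.9 CPM in WT 1, 10.8 in WT 2 and 9.90 in WT 4. All clones were above the wild type, K17 the least. The log2 fold change was 1.23 (SE 0.15, adjusted p = 0.0015 by edgeR). At 66.7% GC it was the most GC-rich of the 8, and with the trend removed its value was 0.54 and not called (adjusted p = 0.0694 by edgeR).

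**Figure D2:**
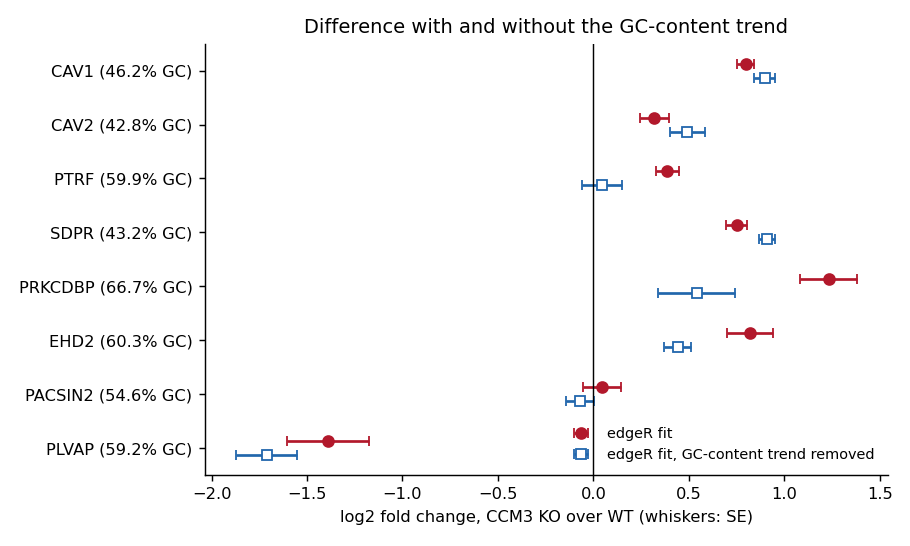
Log2 fold change of each gene, knockout over wild type, from edgeR (red) and from edgeR after removal of the GC-content trend (blue, open), with SE as whiskers and the transcript GC content beside the gene name. PTRF moves to 0.05 and PRKCDBP to 0.54 in the corrected fit, while CAV1, CAV2, SDPR and PLVAP lie farther from 0 in it.

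The make-up of the cavin transcripts also differed. Deposited FPKM, a level per transcript length and library total that allows genes to be compared, was used for this. Of the summed FPKM of the 3 cavins, PTRF made up 63.9%, 66.6% and 67.2% in K17, K18 and K19, against 72.4%, 72.5% and 72.3% in WT 1, WT 2 and WT 4. SDPR made up 31.0%, 27.2% and 26.1% in the clones, against 23.8%, 23.8% and 24.2% in the wild-type lines. PRKCDBP took 5.09% to 6.74% in the clones and 3.57% to 3.76% in the wild type. Every clone had a lower PTRF share and higher SDPR and PRKCDBP shares than every wild-type line, and these shares were not tested. The FPKM ratio of CAV1 to PTRF was 1.72 ± 0.10 in the knockouts and 1.29 ± 0.03 in the wild type (SD, n = 3 each). The GC-content trend was not removed from these shares and this ratio. PTRF and PRKCDBP both lost their calls when it was removed from the counts, and its part in the shares was not tested.

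EHD2, the ATPase of the caveolar neck, was at 225.8 CPM in K17, 284.4 in K18 and 307.8 in K19. It was at 161.9 CPM in WT 1, 155.7 in WT 2 and 145.3 in WT 4. All clones were above the wild type, with K17 nearest to it. The log2 fold change of EHD2 was 0.82 (SE 0.12, adjusted p = 0.00327 by edgeR). Removing the GC-content trend kept the call, at 0.44 (adjusted p = 0.00312 by edgeR).

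PACSIN2 was the gene not called. It was at 74.6 CPM in K17, 88.4 in K18 and 97.8 in K19, against 85.9 CPM in WT 1, 83.5 in WT 2 and 83.3 in WT 4. The clones lay on both sides of the wild-type lines. The log2 fold change was 0.04 (SE 0.10, adjusted p = 0.74 by edgeR), and its 95% interval of -0.20 to 0.29 equals a fold of 0.87 to 1.22. The interval takes a common spread for both groups, although the coefficient of variation was 13.4% in the knockouts and 1.68% in the wild type. Without K17 it was called, at 0.15 (adjusted p = 0.0456 by edgeR).

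PLVAP, which the diaphragms of caveolae and fenestrae require, fell. It was at 2.76 CPM in K17, 4.34 in K18 and 3.01 in K19, from 81, 120 and 87 counts. It was at 9.95 CPM in WT 1, 8.97 in WT 2 and 7.55 in WT 4, from 329, 298 and 218 counts. The highest clone, K18, was below the lowest wild-type library. The log2 fold change was -1.39 (SE 0.21, adjusted p = 0.00367 by edgeR), which leaves 0.38 of the wild-type level (95% interval 0.27 to 0.54). PLVAP is GC-rich at 59.2%, and its value was -1.71 with the GC-content trend removed.

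**Figure D3:**
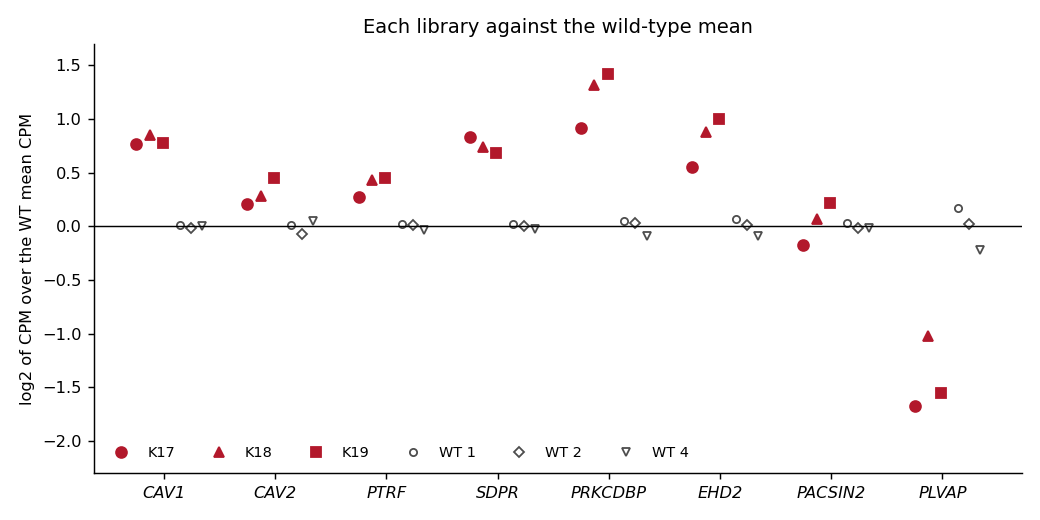
Log2 of each library's CPM over the wild-type mean CPM, for the 8 genes. Filled red symbols are the 3 knockout clones and open grey symbols the 3 wild-type lines. For CAV1 the clones lie between 0.76 and 0.85, for PLVAP between -1.68 and -1.02, and for PACSIN2 they straddle 0.

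From low to high the clones ran K17, K18, K19 for CAV2, PTRF, PRKCDBP, EHD2 and PACSIN2, but not for CAV1, SDPR and PLVAP. K17 was the lowest clone for CAV1, CAV2, PTRF, PRKCDBP, EHD2, PACSIN2 and PLVAP, and the highest for SDPR. K19 was the highest clone for CAV2, PTRF, PRKCDBP, EHD2 and PACSIN2, and K18 for CAV1 and PLVAP. The coefficient of variation between clones was 3.42% for CAV1, 5.21% for SDPR and 6.51% for PTRF, and reached 25.2% for PLVAP. Between the wild-type lines it was 1.13% for CAV1, 1.38% for SDPR and 2.32% for PTRF, and reached 13.7% for PLVAP.

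Length-scaled levels ran over a wide range among the 8 genes, with CAV1 and PTRF at the top. CAV1 was at 349.95 ± 12.3 FPKM in the knockouts and 207.8 ± 1.41 FPKM in the wild type (SD, n = 3 each). PTRF followed with 203.3 ± 9.54 FPKM in the knockouts and 160.6 ± 3.18 FPKM in the wild type. These levels put CAV1 at percentile 99.3 of all tested genes in the knockouts and 98.7 in the wild type, and PTRF at 98.6 in the knockouts and 98.2 in the wild type. SDPR came next, with 86.5 ± 6.28 FPKM in the knockouts and 53.1 ± 0.51 FPKM in the wild type.

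Below SDPR the order of EHD2 and CAV2 differed between the groups, and that of PACSIN2 and PRKCDBP did not. Within each clone EHD2 (59.5 ± 8.10 FPKM over the knockouts) lay above CAV2 (47.6 ± 3.24 FPKM). PACSIN2 (20.7 ± 2.37 FPKM) lay above PRKCDBP (18.6 ± 2.95 FPKM) within each clone. For both pairs, values from different clones overlapped. In the wild type CAV2 (39.4 ± 1.63 FPKM) lay above EHD2 (34.8 ± 1.67 FPKM), and PACSIN2 (20.7 ± 0.15 FPKM) above PRKCDBP (8.21 ± 0.39 FPKM), with no overlap of libraries. PLVAP was the lowest in both, with 1.16 ± 0.29 FPKM in the knockouts and 3.13 ± 0.41 FPKM in the wild type, at percentile 23.2 in the knockouts and 36.8 in the wild type.

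The authors' deposited table of their own comparison lists log2 fold changes of 0.81 for CAV1, 0.33 for CAV2, 0.39 for PTRF, 0.76 for SDPR, 1.21 for PRKCDBP, 0.82 for EHD2, 0.05 for PACSIN2 and -1.31 for PLVAP. Each has the sign found here. The kit marked strand, but the strand setting of the counting is not given, and genes on the opposite strand overlap CAV1, CAV2, SDPR, PRKCDBP and PLVAP in GENCODE, so their reads cannot be told apart. ARFGAP3 overlaps PACSIN2, and a long noncoding RNA overlaps EHD2, on the same strand.

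Paralogues and partners of the coat proteins moved in both directions. Of 8 listed genes 6 were tested, and 2 were higher, 2 lower and 2 not called, with a median log2 fold change of -0.33. Over all genes tested 18% were called higher and 20.8% lower. The skeletal muscle caveolin CAV3 had 1 count in 1 wild-type library and none elsewhere. EHD1, an EHD2 paralogue of endocytic recycling, was at 120.5 CPM in K17, 194.2 in K18 and 201.4 in K19, against 65.8 CPM in WT 1, 62.5 in WT 2 and 55.4 in WT 4, and rose by 1.49 on the log2 scale (adjusted p = 0.00258 by edgeR). EHD3 fell by 1.37 (adjusted p = 0.00403 by edgeR), with 3.13 to 5.31 CPM in the knockouts and 10.9 to 12.2 CPM in the wild type. EHD4 rose by 0.28 (adjusted p = 0.0374 by edgeR), a call that leaving out K18, K19 or any wild-type library ended, at adjusted p of 0.0697 to 0.138. The receptor ROR1, described as a scaffold for caveolins and cavins, fell by 0.81 (adjusted p = 0.00332 by edgeR).

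Of 5 regulators and anchors of caveolae, 1 was higher, 2 were lower and 2 were not called, with a median of 0.25. The shares over all genes were 18% higher and 20.8% lower. MFSD2A, the lipid transporter that suppresses caveolar transcytosis in brain endothelium, was at 5.21 CPM in K17, 6.25 in K18 and 6.43 in K19, against 10.2 CPM in WT 1, 9.90 in WT 2 and 9.38 in WT 4. It fell by 0.72 on the log2 scale (adjusted p = 0.00595 by edgeR), and the groups did not overlap. The kinase gene ABL1 fell by 0.56 (adjusted p = 0.0275 by edgeR), a call that leaving out K19 or any wild-type library ended, at adjusted p of 0.0631 to 0.0952. PRKCA, the gene of protein kinase C alpha, rose by 0.25 (adjusted p = 0.00762 by edgeR), a call that ended without WT 2 or WT 4, at adjusted p = 0.0504 and 0.0561.

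Genes of caveolar cargo and signalling went both ways. In this list of 8, edgeR called 4 higher and 2 lower and left 2, with a median of 0.64. Among all genes it called 18% higher and 20.8% lower. AQP1, a water channel found in caveolae, was at 5.96 CPM in K17, 4.59 in K18 and 6.81 in K19, against 0.36 CPM in WT 1, 0.63 in WT 2 and 0.55 in WT 4, and rose by 3.48 on the log2 scale (adjusted p = 0.000292 by edgeR). NOSTRIN, whose product sequesters nitric oxide synthase away from the membrane, rose by 3.17 (adjusted p = 0.000311 by edgeR). The insulin receptor gene INSR fell by 0.70 (adjusted p = 0.00437 by edgeR). The scavenger receptor CD36 was called lower (adjusted p = 0.00192 by edgeR), but on 1, 2 and 1 counts in K17, K18 and K19, against 21, 14 and 13 counts in WT 1, WT 2 and WT 4. NOS3, the nitric oxide synthase that CAV1 binds, was named after its values were seen. It was at 248.6 CPM in K17, 475.7 in K18 and 591.3 in K19, against 49.8 CPM in WT 1, 47.9 in WT 2 and 40.9 in WT 4, and rose by 3.25 (adjusted p = 0.000861 by edgeR).

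Other routes of endocytosis were also spread around 0. Of 5 dynamin and flotillin genes 1 was higher and 4 were not called, with a median of 0.34. FLOT2, a flotillin of lipid rafts, rose by 0.87 (adjusted p = 0.000539 by edgeR), with 177.8 to 207.7 CPM in the knockouts and 97.9 to 111.2 CPM in the wild type. In the clathrin coat list of 12, 4 were called higher and 3 lower, with 5 left and a median of 0.16. Both lists stand beside 18% called higher and 20.8% called lower among all genes. The clathrin adaptor gene DAB2 rose by 0.78 (adjusted p = 0.00266 by edgeR) and the adaptor subunit gene AP2M1 by 0.33 (adjusted p = 0.00967 by edgeR). CLTCL1, a second clathrin heavy chain, fell by 1.28 (adjusted p = 0.00069 by edgeR) and the assembly protein gene PICALM by 0.31 (adjusted p = 0.0119 by edgeR). Without WT 4 AP2M1 was at adjusted p = 0.0545, and PICALM was at 0.0527 to 0.0608 without WT 1, WT 4 or K19. With the GC-content trend removed the median was 0.47 for the 8 caveolar genes, -0.55 for the paralogues and partners, 0.03 for the regulators, 0.35 for the cargo genes, 0.06 for dynamins and flotillins and 0.01 for the clathrin coat. The lists were not compared by a test.

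**Figure D4:**
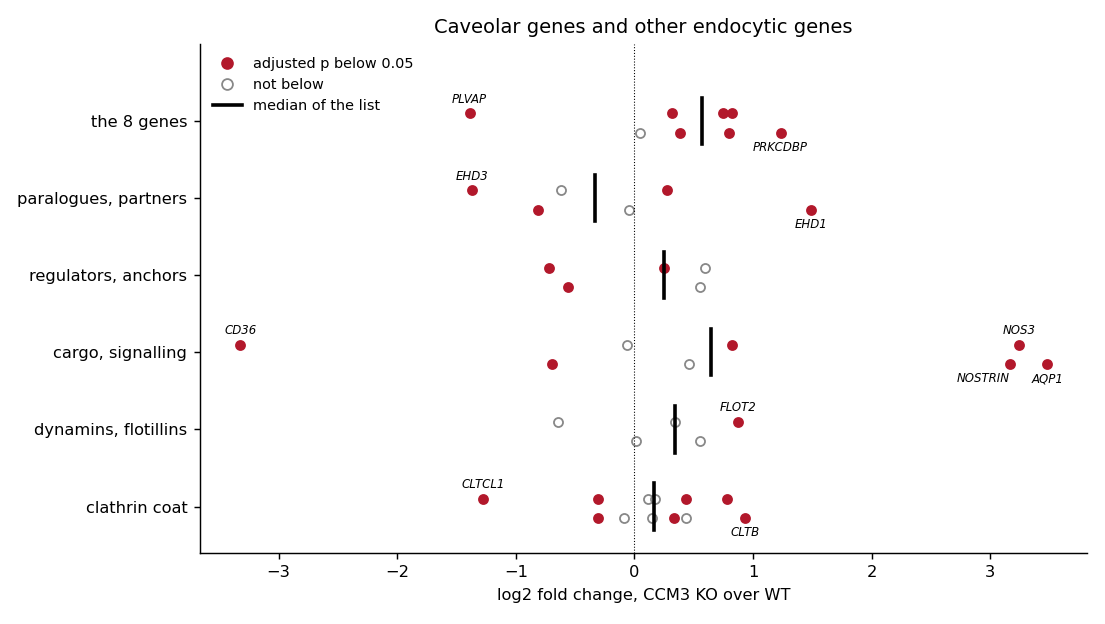
Log2 fold change, knockout over wild type, of every tested gene in the caveolar set and in 5 lists of related genes. Filled red points passed the test at an adjusted p under 0.05, open points did not, and black lines are list medians, which run from -0.33 for paralogues and partners to 0.64 for cargo and signalling genes.

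The chromosomal neighbours of the 8 genes were looked at because CAV2 and CAV1 lie side by side on chromosome 7. Of 28 neighbours, the 2 nearest protein-coding genes on each side, 24 were tested, and 6 were higher, 6 lower and 12 not called, beside 38.7% of all genes called in either direction, 18% higher and 20.8% lower. Their median log2 fold change was 0.17. TES, a focal adhesion gene on the CAV2 side, fell by 0.40 (adjusted p = 0.0142 by edgeR), while MET, the hepatocyte growth factor receptor gene on the CAV1 side, rose by 0.39 (adjusted p = 0.0246 by edgeR). These calls ended without any 1 wild-type library, at adjusted p of 0.0537 to 0.0661 for TES and 0.0817 to 0.0888 for MET, and without K18 or K19 for TES and without K19 for MET. The outer genes TFEC and CAPZA2 had log2 values of 0.41 and -0.05 and were not called.

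On chromosome 19 near PLVAP, BST2, the antiviral tetherin gene, was lower. CCDC194, which lies between them, was not in the count table. BST2 had 4, 2 and 4 counts in K17, K18 and K19, or 0.14, 0.07 and 0.14 CPM, against 11.5 CPM in WT 1, 11.8 in WT 2 and 11.3 in WT 4 (adjusted p = 2.3e-05 by edgeR). On the other side GTPBP3 and ANO8 had log2 values of 0.01 and -0.21 and were not called, though ANO8 was called lower once the GC-content trend was removed, at -0.90 (edgeR adjusted p = 0.0419). Beside SDPR, NABP1 had a log2 value of 0.25 and was not called. On the other side TMEFF2 was not tested and SLC39A10, a zinc transporter gene, fell by 0.39 (adjusted p = 0.0116 by edgeR).

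At the other loci the neighbours also went both ways. Beside PTRF, STAT5A fell by 0.91 and ATP6V0A1, a proton pump subunit gene, rose by 0.48, while STAT3 (0.04) and NAGLU (0.50) were not called. Beside EHD2, ZNF541 rose by 2.42 from levels under 1 CPM and SEPW1 by 0.49, while GLTSCR1 and GLTSCR2 (0.48 and 0.44) were not called. Beside PRKCDBP, APBB1 rose by 0.42 and SMPD1 (0.10) was not called. Beside PACSIN2, the BCL2-family gene BIK rose by 3.71, from 2 to 4 counts in the wild-type libraries to 20 to 47 in the knockouts. At the same locus ARFGAP3 fell by 0.30, while TTLL1 (0.32) and A4GALT (-0.07) were not called. The edgeR adjusted p of these 7 calls ran from 0.00148 for ZNF541 to 0.0306 for APBB1. The calls of APBB1, SEPW1 and ARFGAP3 ended without any 1 wild-type library, at adjusted p of 0.0582 to 0.114, that of APBB1 also without K18 or K19 and that of ARFGAP3 without K18. The call of SLC39A10 ended without WT 1 or WT 4, at edgeR adjusted p = 0.0556 and 0.0577. APBB1 and SLC39A10 were also not called once the GC-content trend was removed, at 0.11 and -0.16. NABP1 and TTLL1 were called higher under that setting, at 0.48 and 0.27 (edgeR adjusted p = 0.011 and 0.0404). NAGLU, GLTSCR1, GLTSCR2, NABP1 and TTLL1 were called higher, and CAPZA2 lower, without K17, and A4GALT was called lower without K19, at -0.81.

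**Figure D5:**
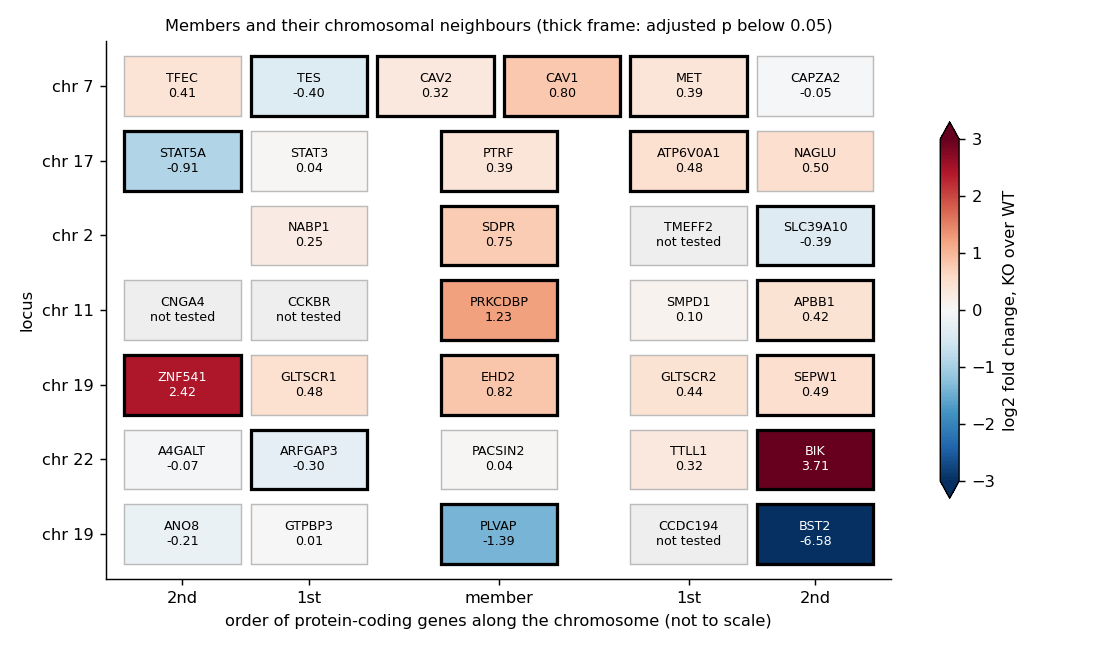
The 8 genes in the middle and the protein-coding genes on each side of them, up to 2 a side, by chromosome and in chromosomal order, not to scale. Colour and number give the log2 fold change, knockout over wild type, a thick frame marks an adjusted p under 0.05 and grey marks genes not tested. CAV1 (0.80) and CAV2 (0.32) lie beside TES (-0.40) and MET (0.39), and PLVAP (-1.39) lies near BST2 (-6.58).

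Genes of the most similar pattern were sought for 3 of the members by the smallest root mean square difference in log2 CPM over the 6 libraries, each gene centred on its wild-type mean. For CAV1 they were DENND4B, BRI3 and RGS4, a regulator of G-protein signalling, at distances of 0.05, 0.05 and 0.06. Their log2 fold changes were 0.82, 0.85 and 0.81. DENND4B was no longer called once the GC-content trend was removed (0.41, edgeR adjusted p = 0.0707). For PTRF they were TMEM109, C14orf93 and TPD52L2, at distances of 0.02 to 0.03 and with log2 fold changes of 0.37, 0.37 and 0.36. The C14orf93 call ended without any library but K17, and that of TPD52L2 without WT 4, at edgeR adjusted p of 0.0554 to 0.139. For PLVAP, ANK3, the ankyrin-G gene, and SUSD5 were among the nearest, at distances of 0.13 and 0.14 and with a log2 fold change of -1.34 each.

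Markers of other cell types were low or absent for most lineages, and their part in these results was not tested. Smooth muscle and pericyte markers summed to 20.4 to 32.3 CPM in the knockouts and 298.3 to 313.5 CPM in the wild type. RGS5 was at 5.06 to 14.9 CPM in the knockouts and 293.6 to 308.9 CPM in the wild type, where it held most of the sum. ACTA2 was at 8.58 to 16.1 CPM in the knockouts and 3.70 to 4.09 CPM in the wild type. CNN1, DES and PDGFRB were at or below 0.242 CPM in every library. Fibroblast markers (5 genes) summed to 0.58 to 7.19 CPM in the knockouts and 2.92 to 3.32 CPM in the wild type, and leukocyte markers (5 genes) to 1.53 to 3.46 CPM in the knockouts and 0.28 to 1.75 CPM in the wild type. Epithelial markers summed to 348.9 to 624.5 CPM in the knockouts and 242.3 to 261.3 CPM in the wild type, mostly KRT18, while CDH1 had no count in any library. Of 4 skeletal muscle markers, MYOG and CKM had no count and the sum stayed at or below 0.121 CPM in every library.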

How the data were processed

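Stranded mRNA libraries were made from total RNA, per the labels' protocols. The submitters' processing notes name STAR, HTSeq, hg19 and GRCh37. Annotation and strand setting were not found in the labels. The authors deposited whole-number counts per gene and library and FPKM beside them, per the file headers. Their own comparison table, per the file headers, holds a mean normalized signal, log2 fold changes and their SE, a p-value and an adjusted p-value.

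Counts were fitted with edgeR 4.0.16 (glmQLFit with robust estimation, TMM factors, filterByExpr with a minimum count of 10 and a total of 15, Benjamini-Hochberg over 14548 genes). CPM used TMM-scaled totals, and SE is the log2 fold change over the square root of F. Alternatives were other scalings and filters, DESeq2 1.42.0, limma 3.58.1 on voom values and on log2 of FPKM plus 1 or 0.1, no robust estimation, each library left out, and removal of a lowess trend (span 0.3) of log2 CPM on median transcript GC content (GENCODE 29 transcripts, 13270 genes, all 8 members). On counts simulated for this comparison (14401 genes), edgeR called 20.9% of genes set to a 1.5-fold change, 57.6% at 2-fold and 93.8% at 4-fold. The simulation left 14203 genes unchanged, while 38.7% of genes were called in the data. It also gave each gene the same dispersion in both groups, although the knockouts spread more. The percentages may therefore not hold for the data. Pairs of clones differed by 20.7 to 73.1 chi-square units per degree of freedom and pairs of wild-type lines by 2.16 to 4.45, so none was counted as a duplicate. These values do not show whether the wild-type libraries came from separate cultures. The members and lists were chosen with earlier results of these data known. Named were the 8 members, PDCD10, up to 2 called genes per list and direction, all tested neighbours and 3 similar genes each for CAV1, PTRF and PLVAP. Some of the genes this rule names are not reported here, though counts and medians include them. Neighbours and overlaps were taken from GENCODE 29 (GRCh38) by name, since the files use another build. The 95% intervals are from the edgeR fit and include spread between libraries.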

Additional observations from a re-analysis of the deposited data

How the results depend on the processing

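No paired analysis was possible because the labels give the 2 groups no shared replicate numbers. With 1 library left out in turn, edgeR called 3020 to 9267 genes (1370 to 4776 higher and 1650 to 4491 lower) and 6 to 8 of the caveolar genes, so the counts of calls depend on single libraries. Over the same leave-outs the log2 fold change was 0.27 to 0.38 for CAV2 and -0.029 to 0.15 for PACSIN2. Over all 17 alternatives CAV1 kept 0.75 to 0.90, SDPR 0.69 to 0.91, EHD2 0.44 to 0.95 and PLVAP -1.71 to -0.94. With the GC-content trend removed, PTRF was at 0.046 and PRKCDBP at 0.54, neither called, and PACSIN2 was at -0.068. PACSIN2 was at -0.0094 on log2 of FPKM plus 1 and -0.010 on FPKM plus 0.1. The cause was not tested.

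Among neighbours that were not called, signs changed with the GC-content trend removed for CAPZA2 (0.17), NAGLU (-0.079), SMPD1 (-0.24), GLTSCR1 (-0.19) and GTPBP3 (-0.64). Leave-outs ran over -0.34 to 0.88 for TFEC, -0.16 to 0.057 for CAPZA2, -0.011 to 0.093 for STAT3, -0.81 to 0.25 for A4GALT and -0.049 to 0.12 for GTPBP3. STAT3 was at -0.0014 on library totals only, -0.0071 on FPKM plus 1 and -0.0076 on FPKM plus 0.1. GTPBP3 was at -0.012 with upper-quartile factors, -0.037 on library totals only, -0.0021 with limma on voom values, -0.039 on FPKM plus 1 and -0.046 on FPKM plus 0.1. For the genes outside the caveolar set, 772 values kept their direction and side of the threshold, 48 lost the call, 22 gained it and 22 changed sign. Among the 8 caveolar genes PLVAP had the fewest counts, at 81 to 120 counts in the knockouts and 218 to 329 in the wild type.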
